A study of Mus musculus with 18 samples.

Results

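The regions described here are the broad H3K4me3 domains of the wild-type (WT) mouse hippocampus, and what became of them in hippocampus with a conditional knockout (cKO) of Arid1a. Each is a peak of the WT H3K4me3 list of at least 2000 bp that no WT H3K27me3 peak touched by a single base. Of 25145 WT H3K4me3 peaks, 1460 reached that length, 11 of these met WT H3K27me3, and 1449 were kept. They made up 5.76% of the peaks and 17.7% of the bases under WT H3K4me3 peaks, 3720114 bp in all. The members were chosen by measured values, peak length and the absence of WT H3K27me3. Neither is therefore a finding, and the lengths and fold enrichments compared between cKO and WT are given as a description without a test. RNA was not used to choose them and was tested.

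All animals were C57BL/6 mice. Chromatin immunoprecipitation sequencing (ChIP-seq) was done at 3 weeks of age on cKO hippocampus and on WT hippocampus, with 1 library per genotype for H3K4me3, H3K27ac, H3K27me3 and input. RNA came from 2 cKO and 2 WT hippocampus samples at the same age, called P21 here, and from 3 cKO and 3 WT samples at embryonic day 16.5 (E16.5). The labels name neither the Cre driver nor the cells in which Arid1a was lost, and the sources used here do not say how many animals went into a sample. The series calls the RNA samples biological replicates, and it states that the ChIP-seq had none.

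H3K4me3 is laid down at active and poised promoters by the SET1 and MLL methyltransferase complexes, mostly over CpG-rich DNA. Most promoters carry a short stretch of it, whereas broad domains are known to lie over genes that hold the identity of a cell, such as lineage transcription factors, and over very highly transcribed genes. H3K27ac marks active promoters and enhancers, and H3K27me3 is the mark of Polycomb repression. The ARID1A protein is part of BAF, the mammalian SWI/SNF complex, which moves and evicts nucleosomes.

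A gene was assigned to a domain when its annotated start lay inside it or within 1 kb, the start closest to the peak summit being taken where there were several. Of the 1449 domains, 1350 received a gene this way, 88 had only a more distant gene within 50 kb, and 11 had none within 50 kb. For 314 of the 1350 the strand was not known and either end of the gene was used. The 1336 distinct genes comprised 1196 protein-coding genes and 121 lncRNAs, and 1278 of them had a row in the count tables. In 961 domains the start lay inside the domain and the strand was known. There the domain reached a median of 1670 bp downstream of the start and 752 bp upstream, and 769 of the 961 (80.0%) extended further into the gene than ahead of it. Among WT H3K4me3 peaks of 1000 to under 2000 bp, 84.3% of 4437 did so.

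The 250 bases ahead of the start are printed for 8 of these genes, 6 whose P21 RNA fell in cKO and 2 whose P21 RNA rose, because their promoter DNA lies inside a broad domain and shows how dense in CpG such domains can be. Sequences are from RefSeq on GRCm38.p6, 5′ to 3′ on the strand of the gene, and capitals mark each CG pair. Each window lies inside its domain.
Emx2: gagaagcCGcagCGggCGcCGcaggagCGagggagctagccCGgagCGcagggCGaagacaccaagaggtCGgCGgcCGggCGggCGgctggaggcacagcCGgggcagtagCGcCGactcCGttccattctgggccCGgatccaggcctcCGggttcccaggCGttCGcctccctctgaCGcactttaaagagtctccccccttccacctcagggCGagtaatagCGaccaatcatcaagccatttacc
Dpf3: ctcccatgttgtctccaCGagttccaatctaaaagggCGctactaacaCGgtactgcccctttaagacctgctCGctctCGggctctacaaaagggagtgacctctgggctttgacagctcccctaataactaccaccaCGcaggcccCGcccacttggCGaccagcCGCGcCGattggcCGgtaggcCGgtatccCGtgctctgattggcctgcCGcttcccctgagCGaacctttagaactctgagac
Kif26b: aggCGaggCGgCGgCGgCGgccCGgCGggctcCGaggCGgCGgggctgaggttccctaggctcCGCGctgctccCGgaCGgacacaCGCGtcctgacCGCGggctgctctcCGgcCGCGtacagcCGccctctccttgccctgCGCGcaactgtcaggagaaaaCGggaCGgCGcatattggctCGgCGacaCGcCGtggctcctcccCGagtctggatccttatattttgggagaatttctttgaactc
Grm3: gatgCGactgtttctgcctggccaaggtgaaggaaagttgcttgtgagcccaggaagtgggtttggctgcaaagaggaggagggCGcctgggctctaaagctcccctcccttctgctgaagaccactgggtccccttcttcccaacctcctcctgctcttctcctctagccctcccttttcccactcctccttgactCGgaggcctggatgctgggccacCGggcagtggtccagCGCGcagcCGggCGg
Bcl11b: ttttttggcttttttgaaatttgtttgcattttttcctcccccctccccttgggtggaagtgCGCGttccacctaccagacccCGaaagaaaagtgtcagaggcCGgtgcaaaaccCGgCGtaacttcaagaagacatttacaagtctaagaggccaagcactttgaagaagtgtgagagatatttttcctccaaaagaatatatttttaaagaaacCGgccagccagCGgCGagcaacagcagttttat
Sox11: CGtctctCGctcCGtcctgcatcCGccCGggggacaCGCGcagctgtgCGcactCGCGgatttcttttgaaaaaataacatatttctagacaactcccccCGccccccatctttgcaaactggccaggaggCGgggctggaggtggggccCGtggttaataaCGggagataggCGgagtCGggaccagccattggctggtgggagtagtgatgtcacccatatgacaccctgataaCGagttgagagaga
Npas2: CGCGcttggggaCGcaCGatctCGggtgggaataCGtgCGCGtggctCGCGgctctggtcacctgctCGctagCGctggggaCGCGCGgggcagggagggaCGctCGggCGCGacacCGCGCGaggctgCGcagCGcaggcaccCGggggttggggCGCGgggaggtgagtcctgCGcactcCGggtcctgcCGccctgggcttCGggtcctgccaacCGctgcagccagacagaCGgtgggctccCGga
Dusp1: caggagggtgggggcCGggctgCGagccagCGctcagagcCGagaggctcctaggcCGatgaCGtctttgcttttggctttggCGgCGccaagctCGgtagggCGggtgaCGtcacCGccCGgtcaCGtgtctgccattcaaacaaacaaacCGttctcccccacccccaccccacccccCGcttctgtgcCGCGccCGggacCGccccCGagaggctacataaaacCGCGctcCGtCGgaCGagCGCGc

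The printed windows were Emx2 at chr19:59458440-59458689 on the plus strand (24 CG pairs), Dpf3 at chr12:83487737-83487986 on the minus strand (16 CG pairs), Kif26b at chr1:178528875-178529124 on the plus strand (32 CG pairs), and Grm3 at chr5:9725353-9725602 on the minus strand (8 CG pairs). The other 4 were Bcl11b at chr12:108003415-108003664 on the minus strand (9 CG pairs), Sox11 at chr12:27342719-27342968 on the minus strand (17 CG pairs), Npas2 at chr1:39194022-39194271 on the plus strand (34 CG pairs), and Dusp1 at chr17:26508473-26508722 on the minus strand (28 CG pairs). The printed windows of Npas2, Kif26b and Dusp1 are the densest in CpG of the 8, and those of Grm3 and Bcl11b the sparsest. The cyclic AMP response element TGACGTCA, a palindrome that reads the same on both strands, was found by letter match in the Dusp1 window and in none of the other 7. A match is a description of the letters and not a site that was measured.

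Over promoter windows from 250 bases before to 50 after the start, domain genes were richer in CpG than other promoters. The 1022 domain genes with an entry had a median of 29 CG pairs (quartiles 19 and 39) and 68.5% G plus C. Genes of WT peaks of 1000 to under 2000 bp had a median of 24 pairs and 64.3%, over 4899 promoters. The 32851 promoters of the whole table had 7 pairs and 52.7%. The TATA box letters TATAAA, searched on both strands, were in 5.58% of domain promoters, 5.25% of promoters at peaks of 1000 to under 2000 bp and 13.6% of all promoters. The ETS-type letters CCGGAAGT, on both strands, were in 4.01% of domain promoters, against 7.86% at peaks of 1000 to under 2000 bp and 3.89% of all. For CCAAT on both strands the shares were 30.6%, 33.2% and 37.4%, and for TGACGTCA 2.35%, 3.65% and 1.79%.

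The domains ran from 2000 to 7083 bp, with quartiles at 2155, 2397 and 2767 bp. Their fold enrichment over input, the authors' own value at the peak summit, had a median of 15.4 in WT, close to the 14.1 of WT peaks of 1000 to under 2000 bp. Within the domains, length and fold enrichment in WT showed no correlation (Pearson r 0.01, Spearman rho 0.00, n = 1449 domains of 1 library, a description). On either side of the length limit the values ran on without a step. The domains of Hmgn1 (2000 bp), Tle5 and Cabp7 (2001 bp each) were the shortest kept, with WT fold enrichments of 18.5, 23.3 and 16.5, and the peaks of Sh3bp5, Phc1 and Sbf2 (1 bp short of the limit each) fell just outside, with 20.1, 15.7 and 17.7.

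Every one of the 1449 domains was met by a cKO H3K4me3 peak (100%, Wilson 95% interval 99.7% to 100%), and a cKO peak covered at least 50% of each. The summed length of the overlapping cKO peaks had a median of 2554 bp, against a median WT length of 2397 bp. The median difference, cKO minus WT, was 106 bp, with quartiles at -77 and 328 bp. In cKO 944 domains were longer, 504 shorter and 1 equal, and 236 were longer by 500 bp or more while 26 were shorter by as much. The share longer in cKO was 65.1% of the domains, against 72.8% of WT peaks of 1000 to under 2000 bp, whose median difference was 128 bp. Because the members were picked for length in WT and several cKO peaks could be summed, other ways of measuring were set beside it. The longest single cKO peak exceeded the WT length by a median of 26 bp, and all cKO peaks of a locus exceeded all WT peaks linked to them by 64 bp. In 348 domains the locus held another WT peak linked by a cKO peak, so part of the cKO length there can lie over that other WT peak. In the mirror-image set, 1711 cKO peaks of at least 2000 bp without cKO H3K27me3, the cKO length exceeded that of the overlapping WT peaks by a median of 182 bp, and 75.6% were longer in cKO. The fragment length that the peak caller used was 177 bp in the cKO H3K4me3 library and 156 bp in the WT one, and its part in the extra length was not tested. Where the strand was known, the cKO edge lay a median of 67 bp further downstream and 46 bp further upstream than the WT edge.

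**Figure D1:**
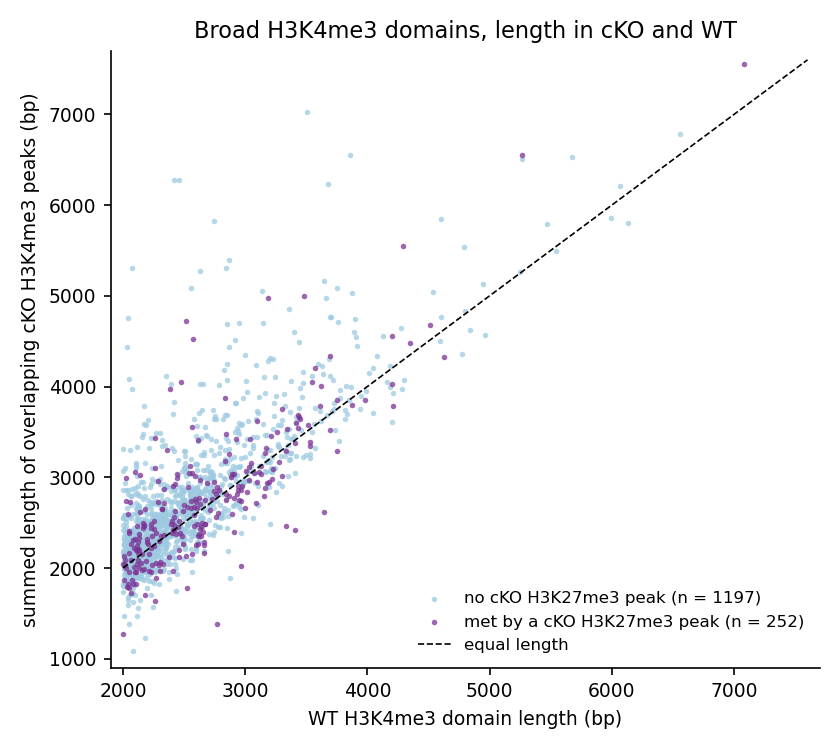
Summed length of the overlapping cKO H3K4me3 peaks (vertical axis, bp) against WT length (horizontal axis, bp) for the 1449 broad domains, 1 point each. Points met by a cKO H3K27me3 peak (252) are purple and the others (1197) light blue. Most points lie near the dashed line of equal length, 944 above it and 504 below.

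Peak height differed little in the median. The cKO fold enrichment of a domain was the highest among its overlapping cKO peaks, whose summit need not lie inside the domain. Taking the highest can raise the cKO value, and its part was not tested. Fold enrichment in the domains had a median of 14.9 in cKO and 15.4 in WT, a median log2 ratio of -0.09. Shared WT peaks of 1000 to under 2000 bp also had -0.09, and all 22935 shared WT H3K4me3 peaks had 0.04. By 1.5-fold or more, 149 domains were higher in cKO and 202 lower. The 2 H3K4me3 libraries held 17795796 tags in cKO and 18488657 in WT, and the cKO list had 28234 peaks (2052 of at least 2000 bp), against 25145 (1460) in WT.

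A domain that was 1 peak in WT was matched by 1 cKO peak in 1031 cases and by 2 to 5 cKO peaks in 418. In 1165 domains the longest cKO peak was itself at least 2000 bp long, and in 9 it was under 1000 bp.

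The longest domain in WT, chr11:24075465-24082547, covered the start of the lncRNA A830031A19Rik and of Bcl11a, a zinc-finger transcription factor of cortical and hippocampal neurons. It measured 7550 bp in cKO over 2 peaks and 7083 bp in WT, with fold enrichments of 12.4 in cKO and 19.0 in WT. The domain of Malat1, an abundant nuclear lncRNA, measured 6781 bp in cKO and 6557 bp in WT, and that of Arid2, a subunit of the polybromo form of BAF, 5798 bp in cKO and 6134 bp in WT. The other long domains were those at the protocadherin genes Pcdh10 (6214 bp in cKO, 6067 bp in WT), Pcdh7 (6527 bp in cKO, 5672 bp in WT) and Pcdh17 (6550 bp in cKO, 5265 bp in WT), and at Spry2, a brake on growth factor signalling (5854 bp in cKO, 5990 bp in WT). Also among the 10 longest were the domains at Nrp1, a receptor in axon guidance (5498 bp in cKO, 5544 bp in WT), Marcks, an actin-binding substrate of protein kinase C (5796 bp in cKO, 5470 bp in WT), and Nfib, a nuclear factor I transcription factor (6502 bp in cKO, 5261 bp in WT). Some of these loci held further WT peaks. By locus, cKO and WT had 7550 and 7358 bp at Bcl11a, 6214 and 6223 bp at Pcdh10, and 7261 and 6349 bp at Pcdh7. They had 6550 and 6075 bp at Pcdh17, 5914 and 6444 bp at Nrp1, and 6502 and 5569 bp at Nfib. Fold enrichment at Marcks was 13.6 in cKO and 23.7 in WT, the widest gap of these 10. Fold enrichment was higher in cKO at Pcdh10, Pcdh7, Pcdh17 and Nfib and lower at the other 6, by 1.5-fold or more at the Bcl11a locus, Nrp1 and Marcks.

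The 8 most shortened domains differed by -1379 to -879 bp, cKO minus WT. At Lrrtm3, a synaptic organiser, 1388 bp over 3 cKO peaks stood against 2767 bp in WT, and cKO H3K27me3 peaks covered 1669 bp of the domain. At Kcnc4, a fast potassium channel subunit, 2612 bp in cKO stood against 3644 bp in WT, with 2210 bp of cKO H3K27me3. At the shared start of Prox1os and Prox1, the transcription factor of dentate granule cell identity, 2424 bp in cKO stood against 3406 bp in WT, with fold enrichments of 7.91 in cKO and 15.2 in WT and with 2914 bp of cKO H3K27me3. H3K27ac covered 447 bp of the Prox1os domain in cKO and 1228 bp in WT. Bsn, a presynaptic scaffold, measured 1886 bp in cKO and 2877 bp in WT without cKO H3K27me3. Cacnb3, a calcium channel subunit (2022 bp in cKO, 2963 bp in WT), and Unc5a, a netrin receptor (2458 bp in cKO, 3337 bp in WT), had 295 and 1983 bp of cKO H3K27me3. The remaining 2 had no gene within 1 kb and lay nearest to Nrgn (1088 bp in cKO, 2079 bp in WT) and 4930447A16Rik (1226 bp in cKO, 2179 bp in WT), both without cKO H3K27me3. In all, 5 of the 8 most shortened domains carried a cKO H3K27me3 peak.

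The 8 domains with the largest length difference, cKO minus WT, had 2644 to 3856 bp more, and none of them met cKO H3K27me3. Each met a single cKO peak at a locus that held 2 to 5 WT peaks, so the difference includes bases that neighbouring WT peaks also covered. By locus the lengths were much closer, and at Zeb2 the direction turned. A cKO peak of 6277 bp at Setd1b, a SET1 methyltransferase that deposits H3K4me3, covered 2 domains of 2421 and 2458 bp in WT, where the WT peaks of the locus summed to 5653 bp. At Zeb2, a zinc-finger transcription factor of neuronal and glial development, 5271 bp in cKO stood against 2627 bp in WT, and against 5452 bp over the 4 WT peaks of the locus. The others lay at Bahcc1 (5307 bp in cKO, 2077 bp in WT, 4917 bp in WT by locus), Atp1b1, a sodium pump subunit (5827 bp in cKO, 2743 bp in WT, 5263 bp in WT by locus), the lncRNAs 2810410L24Rik (4758 bp in cKO, 2045 bp in WT, 4133 bp in WT by locus) and Lncpint (6552 bp in cKO, 3861 bp in WT, 5572 bp in WT by locus), and nearest to Flrt2 (7023 bp in cKO, 3503 bp in WT, 5732 bp in WT by locus).

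H3K27ac met nearly all domains in cKO. The share met was 97.9% in cKO (1418 of 1449, Wilson 95% interval 97.0% to 98.5%) and 88.1% in WT (1276, 86.3% to 89.6%), and H3K27ac peaks covered 56.3% of the domain bases in cKO and 33.1% in WT. In 153 domains only the cKO library had a peak, in 11 only the WT library, and in 20 neither. More bases were covered in cKO in 1320 domains and fewer in 108. These values stand beside a cKO H3K27ac list of 24065 peaks and a WT list of 13006, so the whole list was longer in cKO. At WT H3K4me3 peaks of 1000 to under 2000 bp, 89.4% were met in cKO and 65.6% in WT.

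Despite the absence of WT H3K27me3 that defined them, 252 domains (17.4%, Wilson 95% interval 15.5% to 19.4%) met a cKO H3K27me3 peak. The cKO H3K27me3 list was also longer, with 15659 peaks over 13035821 bp against 4124 peaks over 2860228 bp in WT. In WT H3K4me3 peaks of 1000 to under 2000 bp without WT H3K27me3 the share was 11.3% (10.5% to 12.03%). By length it was 13.8% of the 843 domains of 2000 to under 2500 bp, 20.5% of the 366 of 2500 to under 3000 bp, and 25.4% of the 240 of 3000 bp or more. A longer region offers more bases in which a peak can fall. Over bases the domains had 7.13% under cKO H3K27me3 and the peaks of 1000 to under 2000 bp 6.04%. All WT H3K4me3 peaks under 2000 bp without WT H3K27me3 had 7.20%. In 89 of the 252, cKO H3K27me3 covered at least 50% of the domain. Of the 252, 234 also met a cKO H3K27ac peak, and since each library was made from bulk tissue, both marks on the same chromatin and each in different cells cannot be told apart.

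**Figure D2:**
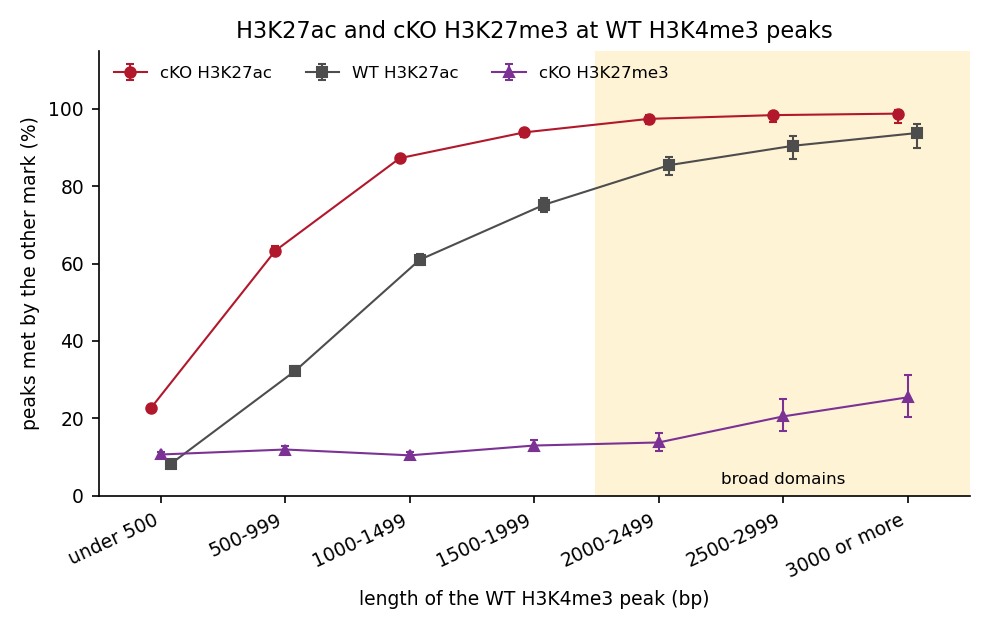
Share of WT H3K4me3 peaks without WT H3K27me3 (vertical axis, %) that met a cKO H3K27ac, WT H3K27ac or cKO H3K27me3 peak, by WT peak length (horizontal axis, bp), with Wilson 95% intervals for the counting error alone and 1 library per mark and genotype. In the shaded broad domains H3K27ac met at least 97.4% of peaks in cKO and at least 85.4% in WT, and cKO H3K27me3 met 13.8% to 25.4%.

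The 252 domains with cKO H3K27me3 were somewhat longer in WT, with a median of 2562.5 bp against 2355 bp in the other 1197, and lower, with a median WT fold enrichment of 12.4 against 15.9. Their median length difference, cKO minus WT, was 54.5 bp, and that of the others 117 bp. WT H3K27ac met 75.8% of them and 90.6% of the others. Their promoters held a median of 26 CG pairs (n = 169), against 29 in the others (n = 854), and CCGGAAGT was in 0.592% of them and in 4.68% of the others. Among the 8 longest, the domain at Bcl11a carried 5 cKO H3K27me3 peaks over 3089 bp, that of the axon guidance ligand Efna5 1 peak over 2717 bp, that of the POU transcription factor Pou3f3 3 peaks over 2223 bp and that of the neuronal pentraxin Nptx1 2 peaks over 2461 bp. Those of Pcdh17, of the atypical cadherin Fat4 and nearest to Tspoap1 were touched over 250 to 256 bp only, and that nearest to Dmtn over 1128 bp.

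Estimated counts per RNA library ran from 20089631 to 20332148 at P21. The E16.5 libraries had 17662335 to 19760764. The domain genes had a median of 1330 counts per P21 library and all tested genes a median of 298.5, so a given change is easier to detect in them. Markers of hippocampal pyramidal and granule neurons summed to 10004 and 10719 CPM (counts scaled to a library total of 1e+06) in the P21 cKO libraries and to 10845 and 10332 in WT. Markers of other cell types differed between genotypes at P21. The summed level of 22 oligodendrocyte markers was 5266 and 4635 CPM in cKO and 7861 and 8456 in WT, that of 14 striatal markers 327 and 427 in cKO and 235 and 268.5 in WT, and that of 18 endothelial and mural markers 421 and 408 in cKO and 302 and 268.5 in WT. The 18 microglial markers summed to 509 and 475.5 CPM in cKO and to 572 and 549 CPM in WT, 7 of them being lower. Choroid plexus markers had 3820 CPM in cKO replicate 1 and 1074 to 1495 CPM in the other 3 P21 libraries. At E16.5 the 13 choroid plexus markers ranged from 54.3 to 2658 CPM among cKO libraries and from 107 to 5088 among WT libraries. Of the other cell type lists, 4 did not overlap between genotypes at E16.5. Radial glia markers ran from 5115 to 6489 CPM in cKO and from 4347 to 4920 CPM in WT. Oligodendrocyte-lineage markers ran from 218 to 255 CPM in cKO and from 328 to 349 CPM in WT, microglial markers from 140 to 191 CPM in cKO and from 229 to 332 CPM in WT, and endothelial and mural markers from 222 to 337 CPM in cKO and from 361 to 695 CPM in WT. Xist, the RNA of the inactive X chromosome, followed the replicate number and not the genotype, with 21 and 37 counts in cKO and WT replicate 1 at P21 and 3572 and 4914 in replicate 2. The E16.5 libraries had 6491 to 9159 counts in replicates 1 and 2 and 10 and 7 in cKO and WT replicate 3, so libraries of both Xist levels were mixed within each genotype. No marker of these lists was at 0 in all libraries. The part of these differences in the results that follow was not tested, and in bulk RNA fewer cells of a type and less RNA per cell cannot be told apart.

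At P21 the genes of broad domains were more often lower than higher in cKO. Of 1238 tested, 85 fell (6.87%) and 19 rose (1.53%), where 3.91% of all 17407 genes tested fell and 2.81% rose (edgeR's quasi-likelihood test, adjusted p under 0.05). The median log2 change, cKO over WT, was -0.08 in domain genes and 0.01 in all genes tested, and 62.7% of domain genes had a negative value against 49.0% of all. Changes were mostly small, and of the genes that passed, 12 fell and 3 rose by 2-fold or more. Among genes with a mean of at least 5 CPM (here of the TMM-scaled library), 84 of 1184 domain genes fell (7.09%) and 18 rose (1.52%), where 4.84% of all such genes fell and 2.62% rose. In 495 domain genes (39.98%) each cKO library was below each WT library, and in 238 (19.2%) each was above, where all genes tested gave 27.9% and 28.2%. The 5691 tested genes of WT peaks of 1000 to under 2000 bp had 4.16% lower and 1.95% higher in cKO and a median of -0.01.

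The share of lower domain genes, and its distance from that of all genes, varied with the libraries and scaling that entered. Without WT replicate 2, 19 of 1239 domain genes (1.53%) and 1.60% of all genes were lower, so the share was no longer above that of all genes, while the medians were -0.07 and 0.01. Without WT replicate 1 the shares were 3.55% of domain genes and 2.15% of all genes, and without cKO replicate 1 they were 17.2% and 8.99%. Upper-quartile scaling, which moved the median of all genes to 0.06, gave 52 lower and 27 higher of 1238 domain genes. Of these calls 34.2% were higher, against 18.3% with the TMM scaling used here. Among the calls of all genes 52.3% were higher with upper-quartile scaling and 41.8% with TMM scaling. With upper-quartile scaling the share of lower domain genes stayed above the 2.98% of all genes. The authors' deposited table gave 124 lower (9.75%) and 31 higher (2.44%) of 1272 domain genes at P21. It gave 2.65% lower and 1.53% higher of all 31706 genes with a p-value, a wider set than the 17407 genes tested here. There the share of higher domain genes was above that of all genes, unlike in the edgeR test.

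**Figure D3:**
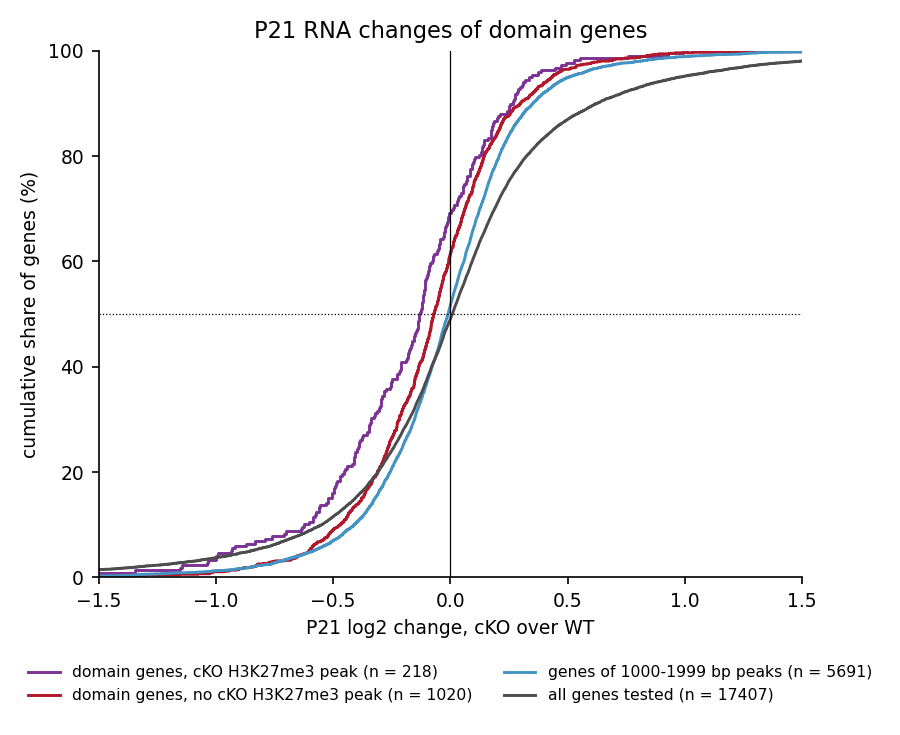
Cumulative share of genes (vertical axis, %) by P21 log2 change, cKO over WT (horizontal axis). The curves of domain genes with and without a cKO H3K27me3 peak cross 50% at -0.13 and -0.07, to the left of genes of peaks of 1000 to under 2000 bp (-0.01) and of all genes tested (0.01).

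The share of lower genes varied with the length of the WT peak. For genes taken by their longest WT peak without WT H3K27me3, 2.78% were lower in cKO at peaks under 500 bp, 2.71% from 500 bp, 3.71% from 1000 bp and 5.08% from 1500 to under 2000 bp. In domains it was 5.66% at 2000 to under 2500 bp (41 of 725), 8.89% at 2500 to under 3000 bp (28 of 315) and 8.08% at 3000 bp or more (16 of 198). The share of higher genes was 4.86% at peaks under 500 bp and 0.966%, 2.86% and 1.52% in the 3 classes of domains. With a minimum mean of 5 CPM, which evens out the depth in part, the lower shares were 4.03%, 3.21%, 4.005% and 5.33% below 2000 bp and 5.77%, 9.36% and 8.33% in domains. For the lower shares the Wilson intervals of neighbouring classes overlapped. For the higher shares those under 500 bp (3.70% to 6.37%) and from 500 bp (1.75% to 2.68%) did not. No trend was tested.

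**Figure D4:**
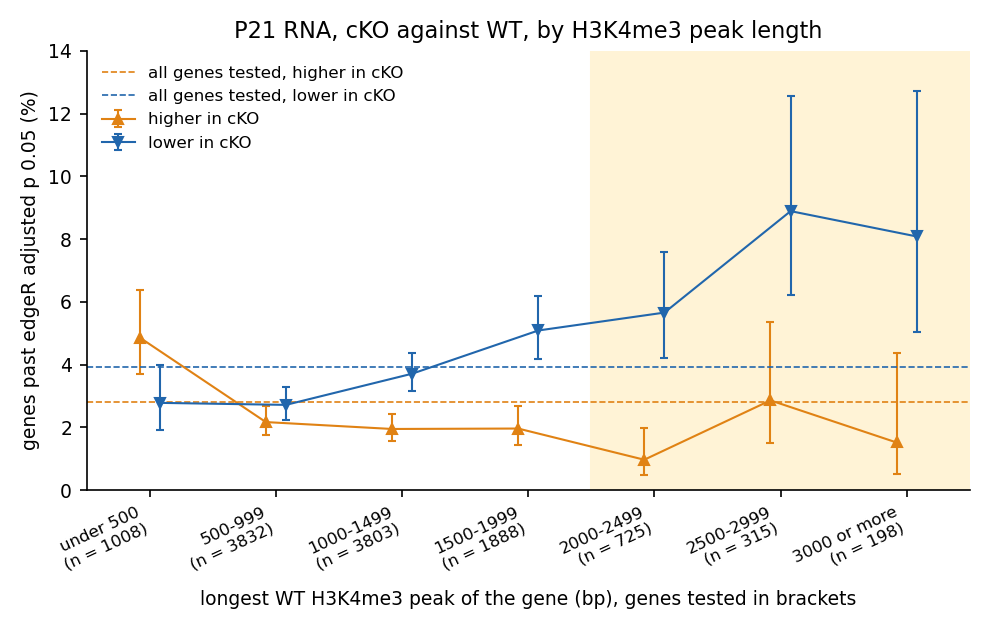
Share of genes past edgeR adjusted p 0.05 at P21 (vertical axis, %), higher or lower in cKO, by the longest WT H3K4me3 peak of the gene (horizontal axis, bp), with Wilson 95% intervals. Dashed lines give all genes tested (2.81% higher, 3.91% lower). In the shaded domain classes 5.66% to 8.89% of genes were lower in cKO.

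Genes whose domain also changed were compared by class. Where the domain was shorter in cKO by 200 bp or more, 19 of 170 genes fell (11.2%) and 2 rose, with a median of -0.14. Where it was within 200 bp, 39 of 603 fell (6.47%) and 8 rose, and where it was longer by 200 bp or more, 27 of 465 fell (5.81%) and 9 rose, with a median of -0.05. Where fold enrichment was lower in cKO by 1.5-fold or more, 22 of 174 genes fell (12.6%) and 1 rose, and where it was higher by as much, 6 of 129 fell (4.65%) and 4 rose. Across the 1238 genes the length difference and the log2 change had a Pearson r of 0.11 and a Spearman rho of 0.10, and the fold enrichment ratio 0.04 and 0.02, all from the same 2 ChIP-seq and 4 RNA libraries and given as a description. Where the domain met cKO H3K27me3, 23 of 218 genes fell (10.6%) and 4 rose, with a median of -0.13. In the other domain genes 62 of 1020 fell (6.08%) and 15 rose, with a median of -0.07. Among genes of shorter peaks with cKO H3K27me3, 109 of 1257 fell (8.67%) and 62 rose (4.93%), with a median of -0.01. A raised share of lower genes was thus not particular to the domains that met cKO H3K27me3. The differences between these classes were not tested.

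Arid1a itself lay in a broad domain, chr4:133751755-133754381, which measured 2936 bp in cKO and 2627 bp in WT. Its P21 level was 110 and 89.2 CPM in cKO and 215 and 205 CPM in WT, a difference of -1.08 on the log2 scale (SE 0.13, edgeR adjusted p = 0.00507). The counts include any transcript that lacks only the deleted part. Dpf3, another BAF subunit with a domain at chr12:83485361-83488693, had 5.74 and 3.46 CPM in cKO and 11.8 and 13.1 CPM in WT (log2 -1.43, SE 0.25, edgeR adjusted p = 0.0197). Its domain was 3502 bp in cKO and 3333 bp in WT, with fold enrichments of 13.8 in cKO and 21.1 in WT. The BAF genes Arid1b (-0.05), Arid2 (-0.06) and Smarcc2 (0.11), also in broad domains, did not pass at P21. Of the 5 H3K4 methylation genes in broad domains, none of which passed, Setd1a came closest to the threshold. They were the methyltransferases Setd1a (log2 0.45, edgeR adjusted p = 0.0944), Setd1b (-0.05) and Kmt2d (-0.30) and the demethylases Kdm2b (0.10) and Kdm5b (-0.32).

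The lowest P21 value among the named domain genes was that of Kif26b, a kinesin-family protein of cell adhesion and polarity (chr1:178527315-178531185). It had 11.5 and 6.57 CPM in cKO and 42.0 and 43.4 CPM in WT, a difference of -2.24 on the log2 scale (SE 0.25, edgeR adjusted p = 0.00817). The domain kept its length, 3791 bp in cKO and 3871 bp in WT, while fold enrichment was 10.5 in cKO and 14.3 in WT and cKO H3K27me3 covered 1968 bp. Emx2, a homeobox factor that patterns the cortex and hippocampus (chr19:59457666-59460269), had 9.45 and 5.62 CPM in cKO and 19.1 and 19.2 CPM in WT (log2 -1.35, SE 0.24, edgeR adjusted p = 0.0213). Its domain measured 2658 bp in cKO and 2604 bp in WT, and cKO H3K27me3 covered 2536 bp of it. In both genes the cKO libraries lay well below the WT libraries and differed more from each other than the WT libraries did.

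Grm3, a metabotropic glutamate receptor (chr5:9724371-9726393), had 9.64 and 9.48 CPM in cKO and 23.8 and 23.4 CPM in WT (log2 -1.30, SE 0.14, edgeR adjusted p = 0.00342). The libraries of each genotype were nearly equal, and the domain measured 1833 bp in cKO and 2023 bp in WT without cKO H3K27me3. Cbfa2t3, a corepressor of the ETO family, had 25.3 and 30.9 CPM in cKO and 65.7 and 59.5 CPM in WT (log2 -1.15, SE 0.13). Its domain carried 1092 bp of cKO H3K27me3. Trim67, a brain-enriched member of the TRIM family, had 4.72 and 3.91 CPM in cKO and 10.6 and 8.57 CPM in WT (log2 -1.15, SE 0.21), and its domain, 1989 bp in cKO and 2172 bp in WT, had 1720 bp of cKO H3K27me3 and no H3K27ac in either genotype. Il1rap, the accessory chain of the interleukin 1 receptor, had 33.0 and 27.5 CPM in cKO and 58.5 and 64.9 CPM in WT (log2 -1.03, SE 0.13). Dnajb5, a co-chaperone of heat shock proteins, had 103 and 131 CPM in cKO and 232 and 243 CPM in WT (log2 -1.03, SE 0.13). Gpr37, a receptor abundant in oligodendrocytes, had 40.8 and 40.2 CPM in cKO and 79.3 and 84.5 CPM in WT (log2 -1.02, SE 0.10), beside the lower oligodendrocyte markers of the same libraries. For these 5 genes edgeR gave adjusted p from 0.0031 to 0.0241, and in each the genotypes did not overlap.

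Among named domains, 3 more genes fell. Kcnc4 had 31.6 and 29.0 CPM in cKO and 60.5 and 60.5 CPM in WT (log2 -0.999, SE 0.11, edgeR adjusted p = 0.00371), with one of the most shortened domains. Marcks had 86.7 and 88.1 CPM in cKO and 136 and 139.5 CPM in WT (log2 -0.65, SE 0.10, edgeR adjusted p = 0.012). Zeb2 had 181 and 156 CPM in cKO and 243 and 267 CPM in WT (log2 -0.60, SE 0.12, edgeR adjusted p = 0.0271), and its locus measured 5271 bp in cKO and 5452 bp in WT. Prox1os, with one of the most shortened domains, had 2.41 and 1.81 CPM in cKO and 4.46 and 4.21 CPM in WT and did not pass (log2 -1.04, edgeR adjusted p = 0.0633). At the other named domains no assigned gene that was tested passed. For the domains at Pcdh10 and Pcdh7 the assigned genes were the neighbours 2610316D01Rik (log2 0.10) and 4932441J04Rik (0.04). For those at Bcl11a and Nrp1 they were A830031A19Rik and A930035F09Rik, which have no P21 value. The RNA of Bcl11a, Pcdh10, Pcdh7, Nrp1 and Prox1 was not part of this comparison.

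Of the genes that rose, Gas5, a lncRNA that hosts small nucleolar RNAs (chr1:161034164-161036885), had 66.8 and 65.6 CPM in cKO and 30.9 and 33.7 CPM in WT (log2 1.03, SE 0.11, edgeR adjusted p = 0.00339). Its domain measured 3304 bp in cKO and 2722 bp in WT, and H3K27ac covered 1750 bp of it in cKO and 557 bp in WT. Npas2, a circadian transcription factor, had 37.4 and 47.6 CPM in cKO and 19.8 and 24.6 CPM in WT (log2 0.94, SE 0.16). Socs2, an inhibitor of cytokine and growth hormone signalling, had 38.7 and 39.9 CPM in cKO and 21.3 and 19.96 CPM in WT (log2 0.93, SE 0.12), and its domain had 1837 bp of H3K27ac in cKO and none in WT. Cadm1, a synaptic adhesion molecule, had 253 and 216 CPM in cKO and 132 and 150 CPM in WT (log2 0.73, SE 0.12), with a domain of 2361 bp in cKO and 2737 bp in WT. Cpe, the carboxypeptidase of prohormone processing, had 2877 and 3060 CPM in cKO and 1820 and 1854 CPM in WT (log2 0.69, SE 0.11), with a domain of 3305 bp in cKO and 2058 bp in WT. Pcgf2, a subunit of Polycomb repressive complexes, had 43.2 and 48.8 CPM in cKO and 31.1 and 29.7 CPM in WT (log2 0.60, SE 0.12), with 2015 bp of H3K27ac in cKO and none in WT.

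Also among the 10 highest under the rule for named genes were the microtubule-associated Eml2 (log2 0.76), the zinc-finger factor Zbtb7b (0.63), the MAP kinase phosphatase Dusp1 (0.61) and the sodium-proton exchanger Slc9a5 (0.58), and edgeR gave adjusted p from 0.00656 to 0.0491 for these 4 and the 5 genes from Npas2 to Pcgf2. That rule left out symbols of gene models and microRNA hosts, of which 9330151L19Rik (log2 0.96, edgeR adjusted p = 0.00784), Mir9-3hg (1.01, adjusted p = 0.0439) and 5031425E22Rik (0.84, adjusted p = 0.0196) also rose without overlap. At the domains of the 10 genes described H3K27ac covered more bases in cKO than in WT, as it did at 1320 of the 1449 domains.

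**Figure D5:**
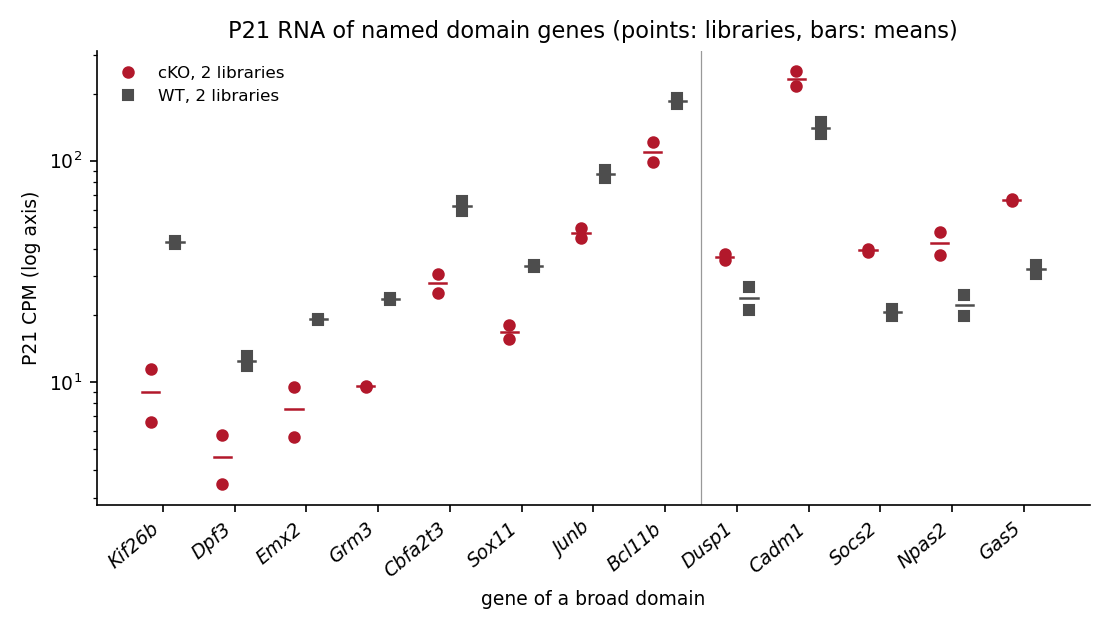
P21 CPM (vertical axis, log scale) of 13 named genes of broad domains, with cKO libraries as red circles and WT libraries as grey squares, 2 each, and bars at the means. In the 8 genes left of the line both cKO points lie below both WT points, and in the 5 genes right of it both lie above.

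The number of domain genes differed between marker lists, which were chosen with earlier results of these data known. As a background, 1238 of the 17407 genes tested at P21 were domain genes. The lists were not tested against that share, and 0 or 1 domain genes in lists of 13 to 22 genes lie near it. Of 26 genes of hippocampal pyramidal and granule neurons 9 were domain genes, of 30 pan-neuronal and synaptic genes 11, of 23 immediate early and activity-regulated genes 9, of 19 genes of H3K4 methylation 5 and of 27 BAF subunits 5. Of 21 astrocyte genes 3 were domain genes, of 20 genes of radial glia 3, of 14 striatal genes 2 and of 18 microglial genes 1. No gene of the lists for interneurons (17), oligodendrocytes (22), endothelium and mural cells (18), choroid plexus and ependyma (13) or ribosomal proteins (22) was a domain gene, though 7, 7, 9, 6 and 21 of these genes had a WT H3K4me3 peak. A shared start assigned to a neighbouring gene hides some, and counting every gene with a start in or within 1 kb gave 11 for hippocampal neurons, 1 for oligodendrocytes and 1 for ribosomal proteins.

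Of the 9 hippocampal neuron genes in broad domains, Emx2 and Bcl11b fell at P21 and none rose, and the median log2 change was -0.29. Of all 26 genes in that list 5 fell and 2 rose, with a median of -0.24. Bcl11b, a zinc-finger factor of CA1 and granule neurons, had 98.5 and 121 CPM in cKO and 180 and 192 CPM in WT (log2 -0.76, SE 0.13, edgeR adjusted p = 0.0162). Its domain, chr12:108002026-108004083, measured 2730 bp in cKO and 2058 bp in WT and had 1322 bp of cKO H3K27me3. Of the 9 domains 6 met cKO H3K27me3, where 17.4% of all domains did. It covered 2848 of the 2964 bp at Neurod2, 1802 of the 2181 bp at Tbr1 and 1263 of the 2137 bp at Lhx2. The domains of Etv1, Nr2f1 and Zbtb18 had none. The RNA of Neurod2 (log2 -0.50, edgeR adjusted p = 0.0852), Tbr1 (-0.38) and Lhx2 (-0.29) did not pass at P21.

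Of all 30 pan-neuronal and synaptic genes 2 fell and 0 rose at P21. Among the 11 in domains, the postsynaptic scaffold Homer1 fell (log2 -0.59, SE 0.13, edgeR adjusted p = 0.0384) and none rose. It had 80.2 and 76.2 CPM in cKO and 105 and 130.5 CPM in WT, and its domain measured 3248 bp in cKO and 2744 bp in WT. The microtubule protein Map2 came closest of the rest (-0.44, edgeR adjusted p = 0.0662). The glutamate receptor subunits Gria1 (-0.11), Gria2 (-0.06) and Grin2a (-0.12), the kinase Camk2b (0.13), the vesicular glutamate transporter Slc17a7 (0.03) and the growth cone protein Stmn2 (-0.13) did not pass. Among these, cKO H3K27me3 covered 2176 bp of the domain at Camk2b, 1705 bp at Slc17a7, 1629 bp at Stmn2 and 402 bp at Grin2a, and none at the other 7.

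Activity-regulated genes, which neurons transcribe in response to firing, were more often lower. Of 9 in broad domains, 5 fell and 1 rose at P21, with a median of -0.59, beside 13 lower and 1 higher of all 23 genes in the list. Junb, an AP-1 transcription factor (chr8:84976663-84978690), had 44.8 and 49.5 CPM in cKO and 90.3 and 83.4 CPM in WT (log2 -0.88, SE 0.11, edgeR adjusted p = 0.00639). Fosl2, another AP-1 factor, had 46.7 and 39.5 CPM in cKO and 70.5 and 85.1 CPM in WT (log2 -0.85, SE 0.14, edgeR adjusted p = 0.0138). Ier5, an immediate early gene, fell by 0.82 (edgeR adjusted p = 0.0413) and the nuclear receptor Nr4a3 by 0.48 (adjusted p = 0.0471). Homer1 was the fifth, and Dusp1 was the gene that rose, with 35.4 and 37.7 CPM in cKO and 21.1 and 26.7 CPM in WT (log2 0.61, SE 0.14, edgeR adjusted p = 0.0459). Jun (-0.47), Dusp6 (-0.46) and Bdnf (-0.60) did not pass. Their domains were longer in cKO in 8 of the 9, where 65.1% of all domains were. Fosl2 measured 4248 bp in cKO and 2853 bp in WT, Nr4a3 4995 bp in cKO and 3479 bp in WT, and Junb 2538 bp in cKO and 2028 bp in WT. These are summed overlapping cKO peaks against the WT domain and not lengths by locus. The exception was Bdnf, with 2938 bp in cKO and 3179 bp in WT.

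In the remaining lists, Sox11, a factor of newborn neurons listed with radial glia (chr12:27341097-27343943), had 18.0 and 15.7 CPM in cKO and 33.9 and 33.1 CPM in WT (log2 -0.99, SE 0.13, edgeR adjusted p = 0.00704), with 1702 bp of cKO H3K27me3 in its domain. Its relative Sox4 had 0.14 and did not pass. Of all 20 genes in the radial glia list 3 fell and 4 rose at P21, with a median of 0.14. The astrocyte list gave Nfix (-0.42, edgeR adjusted p = 0.0623), the microglia list Mef2a (0.37, adjusted p = 0.0766) and the striatum list Foxp1 (0.03, adjusted p = 0.898), each the closest domain gene of its list and none past the threshold. These factors are also expressed in neurons.

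At E16.5, long before the age at which the domains were called, few domain genes passed. Of 1233 tested, 0 rose and 3 fell (0.243%), where 0.0118% of all 16958 genes rose and 0.112% fell (edgeR's quasi-likelihood test). At an unadjusted p below 0.05 edgeR had 136 higher and 177 lower domain genes, where 9.13% of all genes were higher and 11.5% lower. With adjusted p, DESeq2 called 44 domain genes higher and 83 lower of 1230, where it called 2.09% of all genes higher and 4.26% lower. The authors' deposited table, at an adjusted p under 0.05, gave 46 higher (3.62%) and 85 lower (6.69%) of 1270 domain genes. It gave 1.05% higher and 2.14% lower of all 33403 genes with a p-value, a wider set than the 16958 genes tested here. The 3 genes were Arid1a, Hpca and Sept8. Arid1a had 180, 175 and 176 CPM in cKO and 262, 282 and 285 CPM in WT (log2 -0.64, SE 0.06, edgeR adjusted p = 0.032). Sept8, a septin, had 42.3, 45.3 and 46.5 CPM in cKO and 79.4, 70.6 and 76.9 CPM in WT (log2 -0.76, SE 0.07, edgeR adjusted p = 0.0341). Hpca, the calcium sensor hippocalcin, had 49.2, 48.2 and 45.9 CPM in cKO and 71.6, 71.2 and 77.0 CPM in WT (log2 -0.62, SE 0.06, edgeR adjusted p = 0.0376). In all 3 the cKO libraries lay below the WT libraries without overlap, and none of the 3 passed once any 1 library was left out. Hpca lies 4.63 Mb from Arid1a on chromosome 4, and of the 17 other domain genes within 10 Mb of Arid1a it was the one called at E16.5, while Efhd2 was the one called at P21.

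The median log2 change of domain genes at E16.5 was -0.01, the same as that of all genes. The 215 genes of domains that met cKO H3K27me3 at 3 weeks had a median of -0.12 at E16.5, 61.4% of them being negative, and the other 1018 a median of 0.00, 50.3% of them negative. The 1220 genes of shorter peaks with cKO H3K27me3 had a median of -0.40, beside the marker differences among the same E16.5 libraries.

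The cKO effect differed between the ages for few domain genes. Of 1247 tested, 6 had a higher cKO effect at P21 than at E16.5 and 10 a lower one, 0.481% and 0.802%, where all 18979 genes gave 0.427% and 0.738% (edgeR's quasi-likelihood test of the difference). Both shares lay near those of all genes. Among the genes with a higher effect at P21 were Cpe, Sgk1, 9330151L19Rik, Hpca and Pcsk2, and among those with a lower one Sox11, Nrn1, Mycn, Dnajb5 and Fam53b. Without P21 WT replicate 1 or without P21 WT replicate 2 no domain gene passed. At an unadjusted p below 0.05 these fits gave 60 with a higher effect and 171 with a lower one, and 57 and 154.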

How the data were processed

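The members and gene lists were chosen with earlier results of these data known. Reads were aligned with Bowtie2 2.3.5.1, peaks called with MACS2 2.2.5 and transcripts quantified with Salmon 1.0.0, per the submitters' processing notes; the file headers give MACS 2.2.7.1. Each peak list, as deposited, gives the pileup signal at the summit, −log10 p and q, and the fold enrichment over input, at a q limit of 0.01, per the file headers. Peaks were called in each library singly. The RNA tables hold estimated counts per gene, as deposited, and were rounded to whole numbers here. The authors' deposited comparison tables give log2 fold changes, p-values and DESeq2 scores (mean count and test statistic), with version 1.26.0 of DESeq2 named in the submitters' processing notes.

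Overlap meant at least 1 shared base. Starts and promoters were taken from RefSeq on GRCm38.p6. Genes were tested with edgeR 4.0.16 in R 4.3.3 (quasi-likelihood, TMM scaling, edgeR's low-count filter, Benjamini-Hochberg adjustment over all genes), within each age, and the difference between ages in a fit of all 10 RNA libraries. Standard errors were derived from the F statistic and are approximate. DESeq2 1.42.0 was an alternative. Peak overlaps used Python 3.11.15 with pandas 2.3.3, and Wilson intervals scipy 1.17.1. Peak intervals cover counting error only, and p-values measure the spread between samples.

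Named domains were the 10 longest, the 8 most shortened, the 8 most lengthened and the 8 longest with cKO H3K27me3. Named genes were the 10 highest and 10 lowest at P21 past the threshold with groups that did not overlap at least 5 CPM and a symbol not of gene-model or microRNA-host form, genes past it at E16.5, up to 3 per list by adjusted p, the 5 highest and 5 lowest differences between ages, and Arid1a. Genes named beyond this were chosen after their values were seen. Replicate numbers were not treated as pairs. Across genes, same-numbered libraries did not deviate together at E16.5. With 2 libraries per genotype this could not be judged at P21, and the Xist level followed the replicate number at both ages. The values of 1 list gene are not reported here.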

Additional observations from a re-analysis of the deposited data

Results flagged for a closer look

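The cKO effect on RNA differed between P21 and E16.5, by edgeR's test of the difference, for 10 named genes of broad domains (adjusted p from 0.0157 to 0.0477, 2 samples per genotype at P21 and 3 at E16.5). Differences are P21 minus E16.5 on the log2 scale. Sox11, a transcription factor of newborn neurons, differed by -1.587, with 18.0 and 15.7 CPM in cKO and 33.9 and 33.1 CPM in WT at P21, and 2596, 2003 and 1602 CPM in cKO and 1252, 1400 and 1562 CPM in WT at E16.5. Neuritin (Nrn1), an activity-regulated neurite growth factor, differed by -1.559 (-0.49 at P21, 1.03 at E16.5). The others with a lower effect at P21 were the proto-oncogene Mycn (-1.489), the co-chaperone Dnajb5 (-1.054) and Fam53b (-0.8491). Those with a higher effect at P21 were Cpe (1.217), the kinase Sgk1 (1.009), the lncRNA 9330151L19Rik (0.9428), Hpca (0.8984) and the prohormone convertase Pcsk2 (0.6834). At E16.5 alone Hpca passed and the other 9 did not, and at P21 alone Hpca, Sgk1 and Pcsk2 did not. The part of the marker differences among the E16.5 libraries in these values was not tested.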

How the results depend on the processing

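ChIP-seq had 1 library per mark and genotype, so its differences have no replicate check. The number of domains was 3647 at a length minimum of 1500 bp, 240 at 3000 bp and 2912 with peaks within 500 bp joined. The shares met by cKO H3K27ac, WT H3K27ac and cKO H3K27me3 were 95.48%, 80.31% and 14.72% at 1500 bp, 98.75%, 93.75% and 25.42% at 3000 bp, 96.42%, 81.61% and 14.12% with −log10 q of at least 5, 96.63%, 86.06% and 14.49% with peaks joined, and 64.11%, 21.26% and 6.142% when 50% of the domain had to be covered. The median length difference was 26 bp by the longest cKO peak and 64 bp by locus, and the log2 fold enrichment ratio -0.1305 relative to all shared peaks. Without that shift the ratio was -0.094 in domains and -0.088 in shared peaks of 1000 to under 2000 bp.

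At P21, domain genes higher and lower in cKO numbered 8 and 35 with all 10 libraries in 1 fit, 45 and 164 with no filter, 10 and 43 with the replicate block, 56 and 181 at 1500 bp, and 3 and 16 at 3000 bp. In the fit of all 10 libraries these were 0.642% and 2.81% of domain genes, where all genes gave 0.817% and 1.84%. With no filter they were 3.54% and 12.9%, against 2.90% and 3.87%. With the replicate block they were 0.808% and 3.47%, against 2.07% and 2.88%. DESeq2 gave 31 higher and upper-quartile scaling 52 lower. Leaving out 1 library gave 5 to 84 higher and 19 to 214 lower. At E16.5 the counts were 44 and 83 with DESeq2, 6 and 19 with all libraries, and 7 and 16 with no filter. With all libraries these were 0.481% and 1.52% of domain genes, where all genes gave 0.169% and 0.769%. With no filter 0.551% of domain genes were higher, against 0.0717% of all genes. The share of lower domain genes with no filter was also above the 0.314% of all genes. Lower genes numbered 0 with the replicate block (54 and 145 below an unadjusted p of 0.05), 5 at 1500 bp, 0 at 3000 bp and 0 to 1 without 1 library. For the difference between ages, the counts were 21 and 96 with DESeq2, 0 and 0 with the replicate block (61 and 123 unadjusted) and 0 and 3 at 3000 bp. With DESeq2 these were 1.71% and 7.81% of domain genes, where all genes gave 2.51% and 4.50%. Lower genes numbered 33 with no filter, 6 with upper-quartile scaling and 35 at 1500 bp, and higher genes 3 with the start inside the domain only. The 33 and the 6 were 2.59% and 0.481% of domain genes, where all genes gave 0.649% and 0.511%. Leaving out 1 library gave 0 to 20 higher and 0 to 48 lower. The cause of these shifts was not tested.

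The share of lower P21 domain genes exceeded that of all genes in 9 of 10 other settings, the exception being the fit without WT replicate 2. Foxp1 at P21 ran from -0.12 to 0.1674 with 1 library left out, and was negative without WT replicate 1 (-0.05) and without cKO replicate 2 (-0.12). Same-numbered E16.5 libraries correlated at -0.25, -0.04 and -0.53. The P21 ones correlated at 0.04, a value that cannot show whether the numbers were pairs with 2 libraries per genotype. The numbers were not treated as pairs, although the Xist level of a library followed its number. Leaving out 1 library therefore also leaves unequal Xist levels between the genotypes. Of the 29 named P21 genes, Nfix, Mef2a, Foxp1 and Setd1a did not pass in the main test. Of the others, 4 (Slc9a5, Pcgf2, Eml2 and Homer1) no longer passed with the replicate block, and 17 with all libraries.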
